A study of Mus musculus with 161 samples.

Results

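Bone marrow monocytes were the 57 single cells, of 161 in the series, whose label gives that cell type. They came from the marrow of C57BL/6 mice, were untreated and uncultured, and were sorted as Lin−CD117-CD115+CD135−Ly6C+. The other groups, of the same strain and equally untreated, were 38 blood monocytes sorted as CD115+CD11b+Ly6Chi and 66 common monocyte progenitors (cMoP) of the marrow, sorted as Lin−CD117+CD115+CD135−Ly6C+. Each cell was lysed and its oligo(dT)-primed cDNA amplified on a Fluidigm C1 microfluidic chip, and libraries were made only from cells with good cDNA. The labels give no age, sex or animal, so the 57 cells counted as 1 sample, the spread given is the spread between cells, and no significance test was run.

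Monocytes arise in the bone marrow from dividing progenitors, leave it through the chemokine receptor CCR2 and circulate before they enter tissues. The classical, Ly6C-high monocyte carries lysozyme, surface Ly6C and a large store of chemokine, antimicrobial and phagocytic genes. Cells caught in the marrow can still be dividing, can carry remnants of the granule programme shared with neutrophil precursors, or can have begun a response to interferon or to inflammatory signals.

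Values are TPM, a unit that corrects for transcript length and sums to a fixed total per cell. Read depth cannot be recovered from them, so the number of genes above 1 TPM stood for library complexity: it ran from 3031 to 5938 per cell with a median of 4719. The median was 4319.5 in blood monocytes and 6661.5 in cMoP. Mitochondrial transcripts took 0.875% to 9.47% of a cell's TPM, median 4.26%. The correlation between 2 cells was taken over genes above 1 TPM in at least 10% of cells. It ran from 0.349 to 0.524 over 1596 pairs, and 0 pairs held identical values. The label names one flow cell lane for marrow and blood libraries, whose index pairs interleave on one grid of 12 by 8 indices with 57 and 38 pairs used. The spread within the marrow group was therefore not split by lane.

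The markers of classical monocytes were present in the cells with this label. Lyz2, which encodes lysozyme, ranged from 2401 TPM in the lowest cell through a median of 52936 to 92184 in the highest. Ly6c2, the Ly6C antigen of the sort, ranged from 65.6 through 5858 to 24635 TPM, and Ccr2 from 167 through 1244 to 4403 TPM. These 3 genes lay above 10 TPM in all 57 cells. Fn1, which encodes fibronectin, had a range of 3.42 to 3301 TPM with a median of 1007 and lay above 10 TPM in 55 cells. The chemokine gene Ccl6 (0, 1678 and 8441 TPM as lowest, median and highest) was above 10 TPM in 55 cells, and Chil3, which encodes a chitinase-like secreted protein, (0, 218 and 9641 TPM) in 42. Csf1r, the gene of CD115 in the gate, was above 10 TPM in 41 cells. Itgam, the gene of CD11b, which was part of the blood gate only, was above 10 TPM in 37. Kit, the gene of CD117, was above 10 TPM in 0 of 57 cells, which allows a share of up to 5.26%. Flt3, the gene of CD135, reached 8.75 TPM at most. Ms4a3, the gene after which the series is named, was above 1 TPM in 4 cells and reached 8.29 TPM.

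Defining genes of other blood cells were mostly absent or low. The B cell genes Cd79a and Pax5, the T cell gene Cd3e, the NK cell gene Ncr1 and the platelet gene Pf4 were listed at 0 in every cell. Other genes of those lists were above 1 TPM in some cells: Vwf in 27, Ebf1 in 19, Ms4a1 in 16, Cd3d in 13 and Klrb1c in 7. Above 10 TPM they were found in 1, 0, 0, 2 and 0 cells, and Cd79b in 3. The gene of the B cell list found most widely was Ighm, the immunoglobulin mu heavy chain gene, above 10 TPM in 46 of 57 cells with a median of 567 TPM, against 11 of 38 blood monocytes. Lck, a lymphocyte kinase gene, was above 10 TPM in 8 cells. Of the lists for dendritic cells and macrophages, Tcf4, a factor of plasmacytoid dendritic cells, was above 10 TPM in 19 cells, Spic, a factor of red pulp macrophages, in 17 and Clec10a, a lectin gene, in 15. An exact 0 in these values can be a failed estimate: S100a9, an abundant calcium-binding protein gene of monocytes and neutrophils, was listed at 0 in all 57 cells while its partner S100a8 was above 10 TPM in 9.

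Cells 48, 32 and 51 stood apart in the label markers. Cell 48 had the lowest Lyz2, at 2401 TPM, while the next lowest cell had 20024. Cells 32 and 51 had the lowest Ly6c2, at 65.6 and 117 TPM, while the next lowest had 595. Results that rest on these cells, on cell 24 or on cells 41 and 45 are given with and without them below, a choice made after the values were seen.

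The transcript pool was dominated by a few genes. The 10 most abundant genes of a cell took 10.9% to 21.3% of its TPM and the top 50 took 23.5% to 37.6%. Lyz2 alone took 0.240% to 9.22%, median 5.30%. The next by mean level were Actb at 23203 TPM and Tmsb4x at 8002 TPM, for actin and its monomer-binding partner thymosin beta 4. Ftl1, the ferritin light chain, had a mean of 7169.6 TPM and Gpx1, a glutathione peroxidase, 6479 TPM. Ly6c2 stood eighth by mean, at 6439.6 TPM. Of the 25 most abundant genes, all 25 lay above 10 TPM in all 57 cells.

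**Figure D1:**
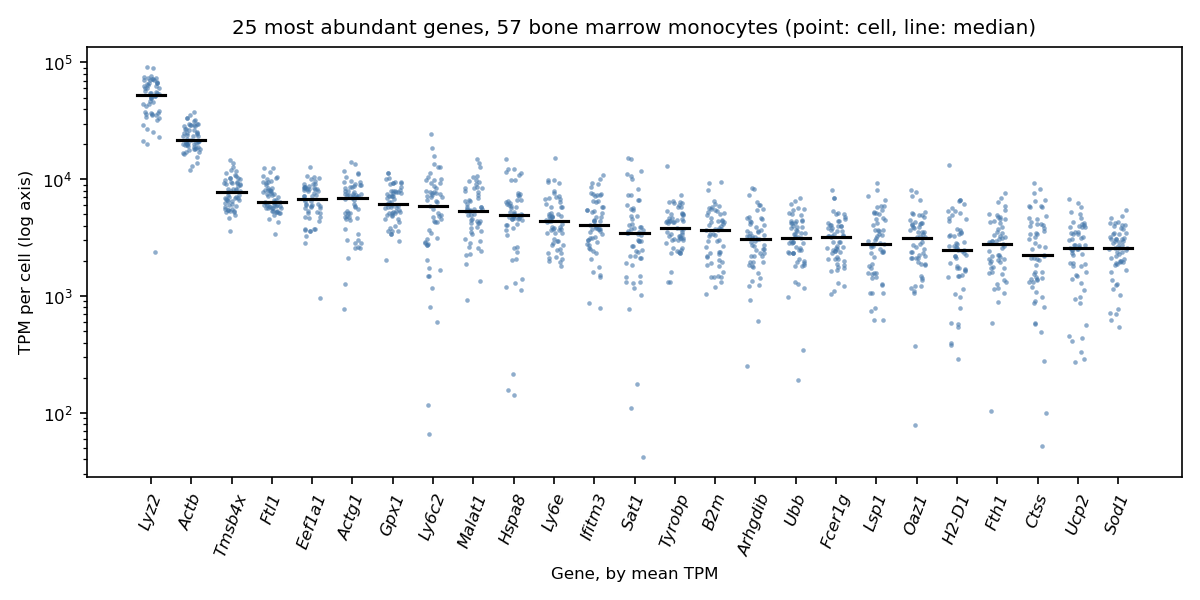
The 25 most abundant genes by mean TPM, with 1 point per cell for the 57 bone marrow monocytes on a log axis and a line at the median. Actb stays between 12103 and 37800.1 TPM, whereas Ly6c2 runs from 65.6 to 24635 and Sat1 from 41.8 to 15221 TPM.

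Other members of the 25 belong to the equipment of a phagocyte. Tyrobp and Fcer1g, the adaptors that carry signals from activating receptors, ranged from 1323 to 13103 and from 1034 to 8163 TPM. Ctss, the lysosomal protease cathepsin S, ran over a wider range, from 52.4 through 2240.1 to 9353 TPM. The MHC class I genes B2m and H2-D1 had medians of 3682 and 2495 TPM. Their lowest cells still had 1043 and 292 TPM. The interferon-inducible membrane protein gene Ifitm3 had a median of 4066 TPM and a lowest value of 794.

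Genes on in every cell were few but held much of the RNA. Of 43280 genes in the table, 23376 were listed at 0 in every one of the 57 cells. Above 1 TPM in all 57 cells were 259 genes, which held 40.1% of the TPM, and 60 of them encode ribosomal proteins. A further 1241 genes were on in over 75% of cells and held 29.7%. Genes on in 25% to 75% of cells numbered 5075 and held 23.4%. At the stricter level of 10 TPM, 163 genes were on in all cells and 2886 in 25% to 75% of them.

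**Figure D2:**
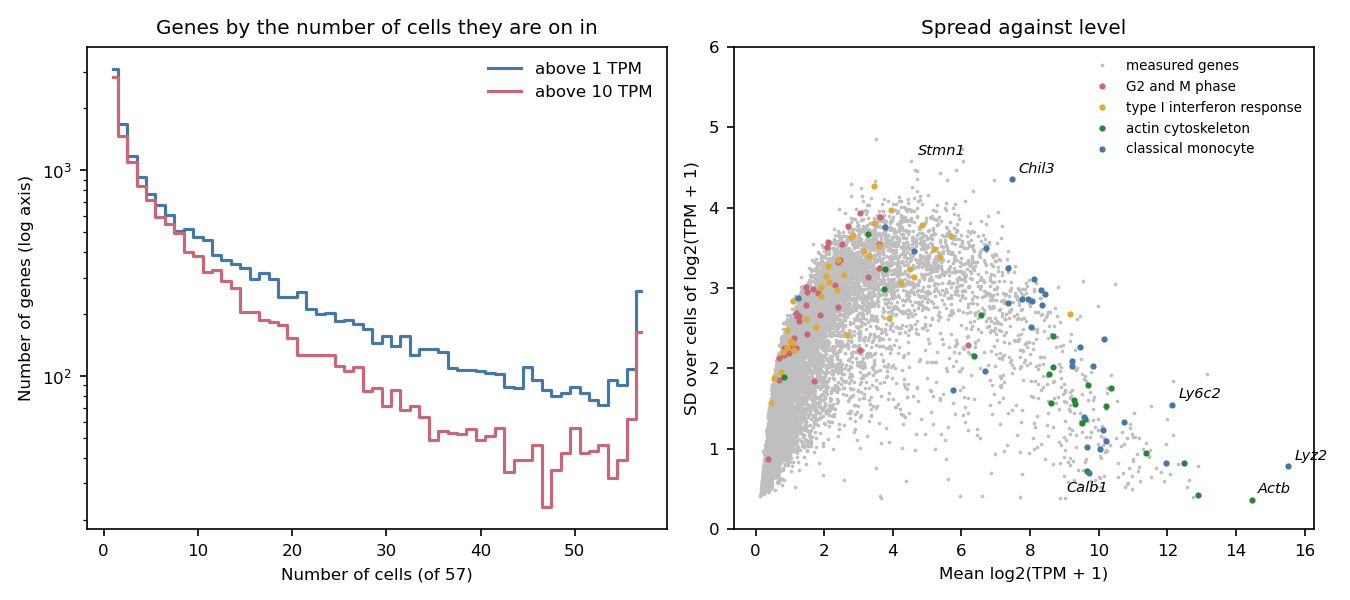
Left, the number of genes (log axis) against the number of the 57 cells they were on in, above 1 TPM and above 10 TPM. Right, the SD over cells of log2(TPM + 1) against the mean, with 4 gene lists in colour: the G2 and M phase and interferon genes lie high at low means, and the actin genes fall to an SD of 0.37 for Actb.

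Of the 163 genes above 10 TPM in all cells, 53 encode ribosomal proteins. Of 10913 genes measured, defined as above 1 TPM in at least 10% of cells, 1.49% lay above 10 TPM in all cells. The same held for 10 of 22 actin cytoskeleton genes, 11 of 32 classical monocyte genes and 8 of 24 genes of the lysosome and cathepsins. It held for 3 of 14 phagocyte oxidase and antimicrobial genes. Cybb and Cyba, the membrane subunits of the oxidase, had medians of 1314 and 1758 TPM. It held for 0 of 32 S phase genes, 0 of 37 G2 and M phase genes, 0 of 40 type I interferon response genes and 0 of 41 nuclear genes of oxidative phosphorylation, of which 24 were nonetheless above 10 TPM in over 75% of cells.

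The spread of a gene was taken as the SD over cells of log2(TPM + 1). Its median over measured genes was 2.13, with a range of 0.37 to 4.86, and it was 1.02 over the genes above 10 TPM in all cells. Among the latter the lowest spreads were those of Actb (0.37), Calb1 (0.38), Zfp260 (0.38), Ftl1 (0.40), Bhlhe41 (0.41), Prr15 (0.41) and Tmsb4x (0.43). Actb, Ftl1 and Tmsb4x are among the 4 most abundant genes. Calb1 is not: it encodes calbindin, a calcium buffer best known from neurons and kidney, and it ranged from 271 through 464 to 803 TPM. Its mean was 485 TPM in marrow monocytes, 719 in blood monocytes and 423 in cMoP. Zfp260, a zinc finger gene, ranged from 294 to 826 TPM and had means of 535, 659 and 486 TPM in the same order. The helix-loop-helix regulator gene Bhlhe41 had means of 63.3, 72.5 and 51.4 TPM. Their SDs were larger outside the marrow monocytes, but they were chosen for a low SD in the marrow. Actb, chosen in the same way, also had larger SDs elsewhere, at 1.44 in blood monocytes and 0.70 in cMoP. Calb1 ran from 320.1 to 4102 TPM in blood monocytes and from 178.5 to 2562 in cMoP, and Zfp260 ran from 169 to 1359 TPM in cMoP.

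At the other end were genes that were abundant in some cells and absent from others. Among genes above 10 TPM in 25% to 75% of cells, the largest spread was that of Stmn1 (SD 4.58), which encodes the microtubule regulator stathmin. It was above 10 TPM in 27 of 57 cells (47.4%), with a median of 807 TPM in those cells. Ccl2, the chemokine that binds CCR2, followed (SD 4.47). It was above 10 TPM in 28 cells (49.1%, 95% exact interval 35.6 to 62.7, which covers the counting of cells only), with a median of 707 TPM there. Next was Sqrdl, a mitochondrial sulfide oxidase gene (SD 4.43, 31 cells). Chil3 had an SD of 4.35. It had a median of 1479.5 TPM in the 42 cells above 10 TPM, and its spread was the largest of the 32 classical monocyte genes.

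Further genes of this kind belonged to several functions. The MS4A family gene Ms4a4a (SD 4.34) was above 10 TPM in 33 cells with a median of 743 TPM there, and the deISGylating protease gene Usp18 (SD 4.27) in 22 with a median of 534. The chromatin protein gene Hmgn2 (SD 4.21) was on in 40 cells, the inflammatory chemokine gene Ccl3 in 32, and the alpha tubulin gene Tuba1b (SD 4.08) in 40. The rest of the 20 largest were Ebp, Hmox2, BC147527, Mrpl28, Wbscr22, Gnpda1, Kpna2, Sirpb1a, Bre, Capns1 and Nrm, with SDs from 4.08 to 4.26.

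The regulators of the lineage were mostly found in a fraction of the cells. Klf13 was the only 1 of 25 myeloid transcription factor genes above 10 TPM in all cells, with a range of 43.3 to 935 TPM. Irf8, required for monocyte development, was above 10 TPM in 39 cells, Klf4, a driver of the monocyte fate, in 36, and Spi1, the gene of PU.1, in 34. Cebpa was above 10 TPM in 8 cells, and Gfi1, a factor of granulocytes, was listed at 0 in all. The median correlation between 2 of the 20 measured factors was -0.004, next to 0.01 over all pairs of measured genes.

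Genes that vary together were sought among the 3879 genes above 10 TPM in 20% to 80% of cells. The median correlation of a pair was 0.02, and 1 in 1000 pairs lay above 0.46. Average-linkage clustering left 4 groups of at least 8 genes, of which 1 was far larger than the rest, with 66 genes. Its leaders were Top2a, which untangles replicated DNA (r of 0.91 with the mean of the others), Casc5, a kinetochore gene (0.90), Uhrf1, which maintains DNA methylation after replication (0.90), Birc5, for survivin of the chromosomal passenger complex (0.87), the proliferation marker Mki67 (0.85) and the kinetochore gene Nuf2 (0.85). Of its genes, 16 are on the G2 and M phase list, 6 on the S phase list and 4 on the list of chromatin and microtubule genes of dividing cells. The members were chosen by their correlation, so the correlation is a description.

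The number of these 66 genes above 10 TPM was 4 in the lowest cell, 11 in the median cell and 63 in the highest. For description the cells were divided after the counts were seen: 41 cells had 4 to 20, 2 cells had 25 and 27, and 14 cells had 34 to 63. These limits are not clear gaps, as the widest step, from 35 to 46, lies inside the 14. Correlations given below over the 41 and over the 14 cells rest on this division. Library complexity moved with this count, as the 14 cells had a median of 5397 genes above 1 TPM and the 41 cells 4449. After a linear term for genes per cell was removed, the median pair correlation in the group was 0.34 against 0.50 before, and the part of complexity in the group was not tested further. Top2a was above 10 TPM in 18 cells (31.6%, 95% exact interval 19.9 to 45.2) with a median of 509 TPM there and a highest value of 1497. Casc5 was above 10 TPM in 13 cells and Uhrf1 in 14, and all 13 of the Casc5 cells were Uhrf1 cells.

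**Figure D3:**
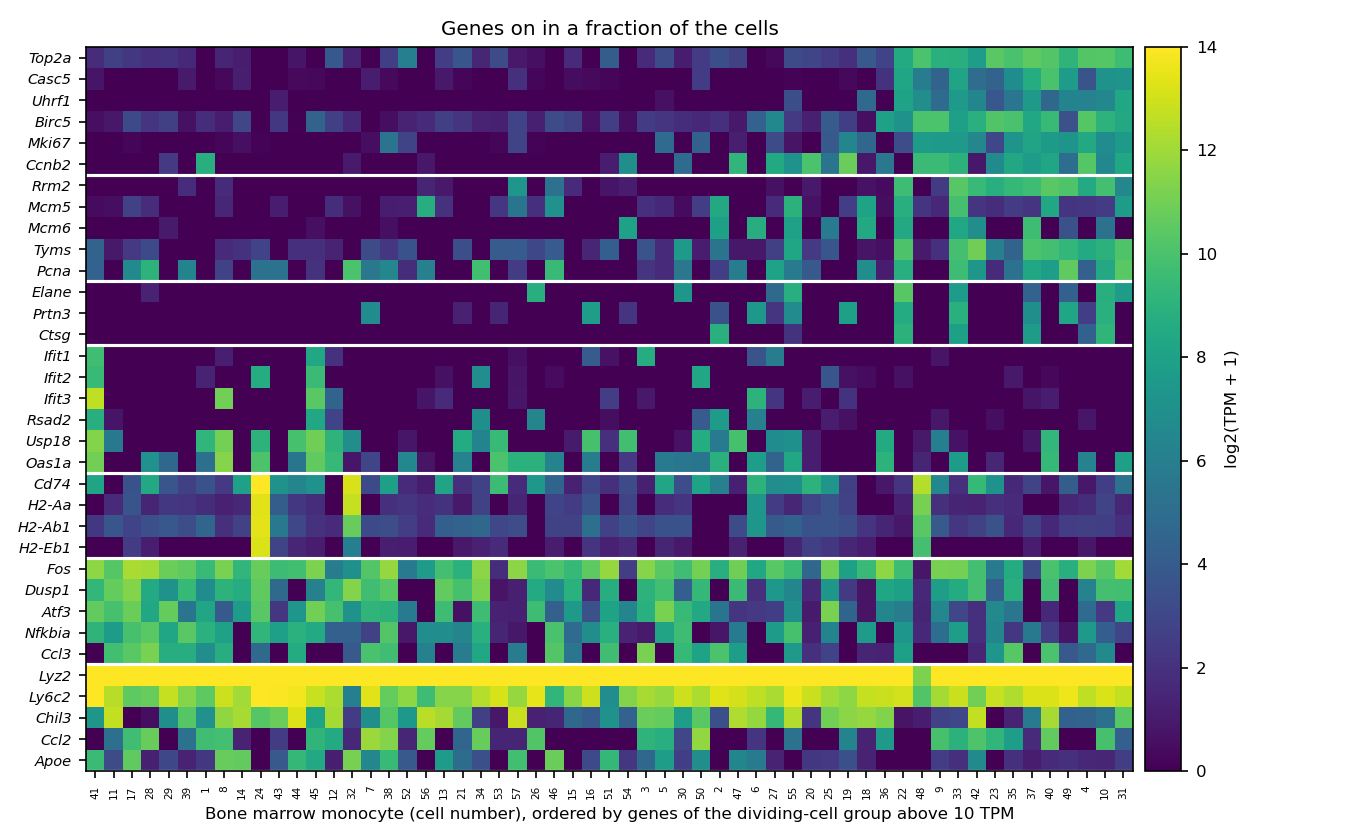
log2(TPM + 1) of 34 genes (a colour scale from 0 to 14) in the 57 bone marrow monocytes, ordered from left to right by the number of the 66 genes of the Top2a group above 10 TPM. White lines part, from the top, dividing-cell, replication, granule, interferon, MHC class II, early response and monocyte genes. Most of the first block is carried by the 14 cells on the right, the highest interferon values by cells 41 and 45 and the highest MHC class II values by cells 24, 32 and 48.

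Promoters of the Top2a group are shown because genes of the cell cycle are known to share 2 elements, the CCAAT box bound by NF-Y and the cell cycle homology region (CHR). Both were searched on both strands, as CCAAT and TTTGAA, in the 300 bases around each start site in the RefSeq table for GRCm38.p6. Of 61 genes with established symbols, 47 matched, with 53 promoters. CCAAT was in 37 of them (69.8%), against 37.4% of 32851 promoters of that length, and TTTGAA in 25 (47.2%), against 17.9%. Among the leaders, Mki67 held 3 CCAAT and 2 CHR matches. Birc5 and Nuf2 held 0 of either, and the promoters of Uhrf1 held CCAAT but 0 CHR matches. In the 2 promoters below, 5′ to 3′ on the gene's strand, capitals mark these letters or their reverse complements ATTGG and TTCAAA. Top2a lies at chr11:99024140-99024439 on the minus strand and holds 6 CCAAT and 2 CHR matches. Ccnb2, for cyclin B2, lies at chr9:70421505-70421804 on the minus strand and holds 3 and 2.
Top2a: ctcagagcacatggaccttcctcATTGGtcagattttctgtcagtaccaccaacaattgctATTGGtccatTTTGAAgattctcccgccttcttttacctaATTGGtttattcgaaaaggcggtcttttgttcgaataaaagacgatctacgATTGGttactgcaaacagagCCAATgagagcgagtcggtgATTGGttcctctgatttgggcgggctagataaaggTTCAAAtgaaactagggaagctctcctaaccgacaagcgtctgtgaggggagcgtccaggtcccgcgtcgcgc
Ccnb2: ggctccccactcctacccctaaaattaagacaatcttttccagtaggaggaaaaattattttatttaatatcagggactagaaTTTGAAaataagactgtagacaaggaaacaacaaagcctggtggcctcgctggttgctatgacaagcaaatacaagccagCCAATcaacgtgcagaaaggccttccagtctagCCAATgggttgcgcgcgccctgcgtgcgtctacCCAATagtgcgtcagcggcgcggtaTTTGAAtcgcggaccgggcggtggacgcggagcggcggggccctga

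The 14 cells high in the group differed among themselves in how many S phase and how many G2 and M phase genes were on. S phase genes serve DNA replication, and G2 and M phase genes serve chromosome condensation and segregation. Cell 22 had 27 of 32 S phase genes above 10 TPM and 10 of 37 G2 and M phase genes, while cell 48 had 3 and 33. Cell 33 had 24 and 17, cell 4 had 10 and 33, and cell 10 had 20 and 29. Over the 57 cells the medians were 3 and 3. Over the 57 cells the mean log2 levels of the lists had r = 0.62 (rho 0.46, 0.70 without the 2 cells farthest from the median, and 0.37 after genes per cell). No r is given within the 14 cells, which were chosen by a count that holds genes of both lists. Mcm5, a subunit of the replicative helicase, reached 948 TPM in cell 33 and was at 3.25 TPM in cell 48, where Top2a was at 1064 TPM.

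**Figure D4:**
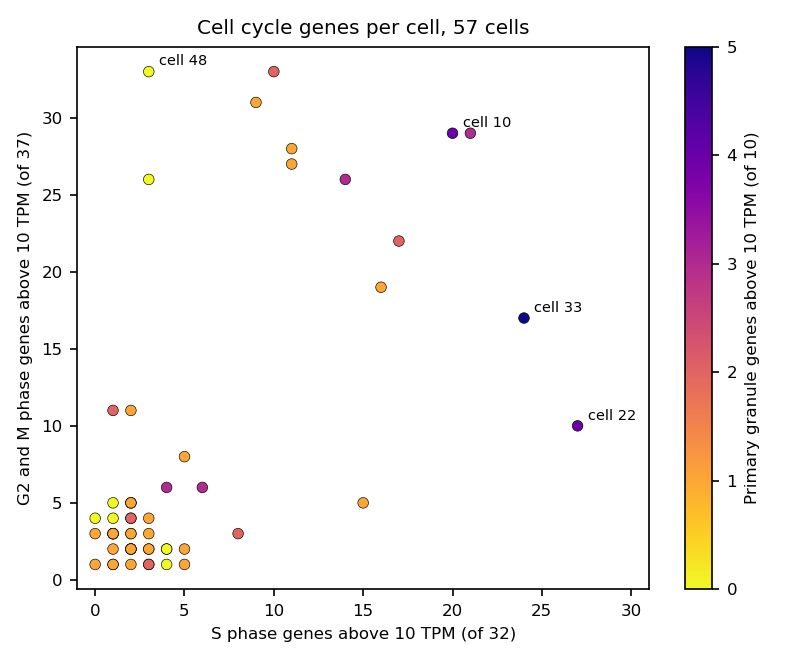
Number of S phase genes (of 32) against G2 and M phase genes (of 37) above 10 TPM in each of the 57 cells, coloured by the number of 10 primary granule genes above 10 TPM. Most cells lie near the origin, the others run from cell 22 (27 and 10) to cell 48 (3 and 33), and cells 10, 22 and 33 carry 4, 4 and 5 granule genes.

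The serine proteases of primary granules, which neutrophil and monocyte precursors make, were found in few cells, many of which had cell cycle genes on. Elane, for neutrophil elastase, was above 10 TPM in 10 cells (17.5%, 95% exact interval 8.75 to 29.9) and above 1 TPM in 11, with a highest value of 1335 TPM in cell 22. Prtn3, for proteinase 3, was above 10 TPM in 10 cells and Ctsg, for cathepsin G, in 6. Elane and Prtn3 shared 6 cells, and 4 cells (10, 22, 33 and 37) had all 3 proteases. Those 4 cells had 20, 27, 24 and 14 S phase genes on. Of the 10 Elane cells, 8 had Ccnb2 above 10 TPM, 6 had Uhrf1, 6 had the ribonucleotide reductase gene Rrm2 and 4 had Mcm5. In the same order, the counts were 6, 5, 5 and 3 of the 10 Prtn3 cells and 4, 5, 5 and 3 of the 6 Ctsg cells. Over all 57 cells they were 21, 14, 13 and 10. Mpo, for myeloperoxidase, was above 10 TPM in cell 33 alone, at 89.7 TPM. In blood monocytes Elane and Ctsg were above 10 TPM in 0 of 38 cells and Prtn3 in 2.

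The 4 measured primary granule genes are these 3 proteases and Gstm1, which was above 10 TPM in 44 of 57 cells. The part of Gstm1 in the correlations of this list was not tested. The S phase list and these 4 genes had r = 0.62 over the 57 cells (rho 0.34). The value was 0.45 without the 2 farthest cells and 0.50 after genes per cell. Over the 14 cells high in the Top2a group, whose count holds 6 S phase genes, r was 0.85 (rho 0.81, and 0.84 without the 2 farthest cells). Over the 41 low cells r was 0.48 (rho 0.30, 0.26 without 2). Of the 6 label markers, 2 were low in several of the cells with all 3 proteases. Ccl6 was at 0 in cell 10, 5.93 TPM in cell 33 and 64.1 TPM in cell 37, which with cell 7 were the 4 lowest of 57. Lyz2 was at 21158 TPM in cell 10 and 25625 in cell 33, the third and the fifth lowest. The 5 lowest cells for Ly6c2, Ccr2 and Fn1 included 0 of cells 10, 22, 33 and 37, and those for Chil3 included cell 22, at 0.68 TPM. Of 22 cells with Apoe, for apolipoprotein E, above 10 TPM, 0 had Elane, 0 had Ctsg and 2 had Prtn3 above 10 TPM. Apoe and Hmgn2 had the lowest r of all pairs searched, at -0.71 (-0.66 after genes per cell), a pair named after its value was seen.

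Metabolic genes had positive correlations with some of these lists and with library complexity. The mean levels of the oxidative phosphorylation and glycolysis lists had r = 0.53 and 0.56 with genes per cell. Over the 57 cells glycolysis had r = 0.44 with the S phase list and 0.41 with the chromatin and microtubule list, and 0.13 and 0.08 after genes per cell. Oxidative phosphorylation had r = 0.63 and 0.74 with those lists, and 0.44 and 0.62 after genes per cell. The 41 nuclear oxidative phosphorylation genes had 21 to 41 members above 10 TPM per cell, median 31. Their mean level and that of the chromatin and microtubule list of dividing cells had r = 0.58 over the 41 low cells. Over the 14 high ones it was 0.58 (0.28 there without the 2 farthest cells). The count that divided the cells holds 4 genes of the chromatin and microtubule list. Values over the 41 and over the 14 cells were not adjusted for genes per cell. Primary granule genes, Gstm1 among them, and glycolysis genes had r = 0.54 over the 41 cells and 0.71 over the 14. Pattern recognition and phagocytosis genes ran the other way against oxidative phosphorylation. Their r over the 57 cells was -0.49, the lowest of the 300 pairs of lists compared, and -0.47 after genes per cell. Over the 41 cells r was -0.47 and over the 14 it was -0.36 (-0.14 without the 2 farthest). In glycolysis, Eno1 was above 10 TPM in all cells (26.5, 1133 and 3002 TPM), while Hk2, for hexokinase 2, was above 10 TPM in 41 with a median of 797 TPM there.

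The other groups of covarying genes were small. The next held 10 genes, among them Nasp, a histone chaperone, Mcm4 of the replicative helicase, Gmnn, for the licensing inhibitor geminin, and Prim2 of the primase, with a median r of 0.47 and 0.30 after genes per cell. The other two, of 8 genes each, held 5 predicted or clone-named symbols each beside Skint4, Styk1 and Appl2, and Psg16, Serpine2 and Btbd16. Of 68 pairs with r over 0.8 in the whole search, 41 involved a predicted, clone-named, mitochondrial or ribosomal symbol. Some of the other 27 were copies or overlapping genes: Rnu3b2 and Rnu3b4, copies of one small RNA gene, had the highest r of the 27, and Myef2 and Slc24a5, which overlap on chromosome 2 (GRCm38.p6, 125080975 to 125123660 and 125068127 to 125088677), had r = 0.91. How the authors' counting divided reads between such genes was not tested.

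The type I interferon response ran as a gradient with 2 extreme cells. These genes are switched on by interferon through the factors ISGF3 and IRF7 and make antiviral proteins. Of the 40 genes, 3 were above 10 TPM in the lowest cell, 12 in the median cell, 33 in cell 41 and 32 in cell 45, and the next cells, 16 and 50, had 26. Ifit3, which encodes an RNA-binding antiviral protein, was above 10 TPM in 5 cells, at 6469 TPM in cell 41 and 1379 in cell 45. Ifit1 was at 823 and 321 TPM in those 2 cells and Rsad2, for viperin, at 451 and 325. Cxcl10, the interferon-inducible chemokine, was at 5405 TPM in cell 41 and listed at 0 in cell 45. Irf7 ranged more widely over the group: it was above 10 TPM in 31 cells, with 3346 TPM in cell 41, 2805 in cell 45 and 2815 in cell 24. Ifi27l2a was on in 53 cells with a median of 812 TPM.

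The median correlation between 2 of the 38 measured members was 0.21, next to 0.01 over all measured genes. It was 0.16 without cell 41 and 0.11 without cells 41 and 45. The list's mean level and that of MHC class I presentation had r = 0.51 (rho 0.42), and 0.40 without cells 41 and 45. Over the 41 cells low in the Top2a group it was 0.58 and over the 14 high cells 0.03. Complexity was low in the extreme cells, with 3242 genes above 1 TPM in cell 41 and 3668 in cell 45, and both are among the 6 cells of lowest complexity. The median pair correlation of the list remained 0.21 after genes per cell and was 0.12 without those 6 cells. The r with MHC class I presentation was 0.55 after genes per cell and 0.35 without them. Usp18, Oas1a, Slfn5 and Irf7 had the largest spreads of the list, with SDs of 4.27, 3.97, 3.81 and 3.78.

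The promoters of Ifit1 and Ifit3 are shown because the list's genes are known for the interferon-stimulated response element, searched on both strands as GAAA, any 2 bases and GAAA. It was in 17 of the 35 promoters (48.6%) of the 29 list genes that matched, against 3.44% of all promoters. Capitals mark matches, here as the reverse complement, TTTC, any 2 bases and TTTC. Ifit1 lies at chr19:34640639-34640938 and Ifit3 at chr19:34583279-34583578 of GRCm38.p6, both on the plus strand, and each holds 2 matches.
Ifit1: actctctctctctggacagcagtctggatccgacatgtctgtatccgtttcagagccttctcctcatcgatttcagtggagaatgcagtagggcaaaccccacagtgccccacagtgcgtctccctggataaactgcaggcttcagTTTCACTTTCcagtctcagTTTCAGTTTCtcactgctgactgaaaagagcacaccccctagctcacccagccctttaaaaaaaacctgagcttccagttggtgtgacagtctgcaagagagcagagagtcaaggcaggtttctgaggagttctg
Ifit3: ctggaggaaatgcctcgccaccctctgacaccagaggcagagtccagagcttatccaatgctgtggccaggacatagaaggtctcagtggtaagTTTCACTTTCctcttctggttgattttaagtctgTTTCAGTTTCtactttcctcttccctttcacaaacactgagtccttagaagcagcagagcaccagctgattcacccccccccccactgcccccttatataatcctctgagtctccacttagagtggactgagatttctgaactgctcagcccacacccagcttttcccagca

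MHC class II genes, which present antigen to CD4 T cells, were high in 3 cells. At lower levels some were found more widely, as Cd74 was above 10 TPM in 30 cells and H2-Ab1 in 21. Cell 6 had 6 genes of the list above 10 TPM, as many as cell 24. H2-Aa was at 10712 TPM in cell 24, 6951 in cell 32 and 2231 in cell 48, with a median of 2.45 TPM over the 57 cells. H2-Ab1 was at 11094, 1698 and 1347 TPM and Cd74, the invariant chain, at 17393, 9095 and 5606 TPM in the same cells. H2-Eb1 was above 10 TPM in these 3 cells alone (5.26%, 95% exact interval 1.10 to 14.6), at 9468, 64.2 and 922 TPM. Ciita, the master activator of the class, was above 10 TPM in cells 32 and 48 alone, at 60.8 and 321 TPM. The median pair correlation of the 7 measured genes was 0.22 in all cells and 0.09 without these 3. Cell 24, with 3636 genes above 1 TPM, is among the 6 cells of lowest complexity, without which the value was 0.19.

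The 3 cells were not alike otherwise. Cell 48, with the lowest Lyz2 and 33 G2 and M phase genes on, also had 1524 TPM of Cd209a, a lectin gene of monocyte-related dendritic cells, and 36.5 TPM of Zbtb46, a dendritic cell factor that was above 10 TPM in no other cell. Cell 32, with the lowest Ly6c2, had 222 TPM of Cd209a and 2223 TPM of Apoe. Cell 24 had 18643 TPM of Ly6c2 with 936 TPM of Fcgr4, 260 TPM of Treml4 and 226 TPM of Nr4a1, genes known from Ly6C-low monocytes. It had 8 genes of the Ly6C-low monocyte list above 10 TPM, and so had cell 46. Of the immediate early list described below it had 18 genes above 10 TPM, the most of any cell. Fn1 was low in cells 24 and 32, at 9.35 and 20.3 TPM. Of the 10 conventional dendritic cell genes, cell 48 had 3 above 10 TPM, the most of any cell. The summed level of that list was 0 in the lowest cell, 5.46 TPM in the median and 2186 TPM in the highest, and Xcr1 reached 3.16 TPM at most. Cd209a was above 10 TPM in 8 cells, of which 3 had H2-Aa above 10 TPM.

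The promoter of H2-Aa is given because class II promoters are known for a CCAAT element, the Y box. CCAAT was in 8 of the 9 promoters (88.9%) of the 8 list genes that matched, against 37.4% of all promoters. H2-Aa lies at chr17:34287774-34288073 of GRCm38.p6 on the minus strand, with its match in capitals as ATTGG.
H2-Aa: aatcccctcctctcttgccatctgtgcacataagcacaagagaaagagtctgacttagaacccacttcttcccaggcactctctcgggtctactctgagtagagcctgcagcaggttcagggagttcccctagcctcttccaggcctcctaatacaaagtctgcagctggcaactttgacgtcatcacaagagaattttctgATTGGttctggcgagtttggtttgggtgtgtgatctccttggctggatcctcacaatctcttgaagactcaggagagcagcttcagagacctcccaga

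The mean levels of immediate early and of inflammatory genes were correlated, while the genes within each list were only weakly so. The former, such as Fos, are transcribed within minutes of a stimulus, and the latter are induced through NF-kB. Fos was above 10 TPM in 53 cells (0.78, 1006 and 4844 TPM), and Dusp1, a phosphatase gene that restrains MAP kinases, in 42 (0, 302 and 2712 TPM). Every Dusp1 cell was a Fos cell, with r = 0.58 between them. Atf3 was above 10 TPM in 40 cells. All 40 had Zfp36, which encodes an mRNA decay factor, above 10 TPM, but so had 52 of all 57 cells. Of the inflammatory genes, Nfkbia, for the inhibitor of NF-kB, was above 10 TPM in 37 cells, Ccl3 in 32, Ccl2 in 28, and Cxcl2 and Il1b in 8 each. All 8 Cxcl2 cells had Nfkbia above 10 TPM.

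The mean levels of the 2 lists had r = 0.67 (rho 0.62, and 0.59 without the 2 farthest cells) over the 57 cells and 0.67 after genes per cell. The value was 0.67 over the 41 cells low in the Top2a group and 0.75 over the 14 high cells. The median pair correlation was 0.13 within the immediate early list and 0.07 within the inflammatory list, next to 0.01 over all measured genes. No gene stands on both lists. Of the 300 pairs of lists compared, 15 had r over 0.5 and 5 had it after genes per cell, and the median was 0.05.

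Classical monocyte genes as a list did not move as one. The median pair correlation over the 32 genes was 0.05. Among the 6 label markers the highest r was that of Lyz2 and Ccl6, 0.33 (rho 0.43), and Ly6c2 and Lyz2 had -0.09. The genes nearest to Ly6c2 were Ly6g (r = 0.73), Ly6c1 (0.60), Oaz1 (0.60) and Ly6i (0.50). Their rho was 0.62, 0.57, 0.33 and 0.51. Without cells 32 and 51, r was 0.63, 0.55, 0.23 and 0.41, so the value of Oaz1 rests on those cells. Ly6g, Ly6c1 and Ly6i are close relatives of Ly6c2, so reads may have been shared between them and their values are uncertain. Ly6g, the neutrophil antigen, reached 235 TPM, while Ly6c2 reached 24635.

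Lyz2 was lower where genes of dividing cells were higher, with r = -0.60 for the histone chaperone gene Anp32e, -0.58 for Stmn1, -0.56 for Ccnb2 and -0.53 for the chromatin gene Ptma. After genes per cell these were -0.50, -0.47, -0.49 and -0.48. On the other side were Prdx5, a peroxiredoxin gene (0.59), the kinase gene Pim1 (0.57), Klf13 (0.54) and Ctss (0.52). Without cell 48, which had the lowest Lyz2, r was 0.32 for Prdx5, 0.35 for Pim1, 0.33 for Klf13 and 0.49 for Ctss, so the first 3 rest in part on that cell. On the other side it was -0.60 for Anp32e, -0.66 for Stmn1, -0.60 for Ccnb2 and -0.64 for Ptma without it. Chil3 was nearest to Pygl, for the liver form of glycogen phosphorylase, with r = 0.53. Ccr2 was farthest from Park7, with r = -0.57. The nearest genes were looked up after the data were seen, out of the genes above 10 TPM in 25% of cells.

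Neutrophil genes were present in part and did not move together. Cd177 was above 10 TPM in 25 cells and Mmp8, a collagenase, in 26, and 12 cells had both (r = 0.05). The list's median pair correlation was -0.005. Mmp8 and Vcan, for versican, shared 18 cells with r = 0.45, a pair named after its value was seen. Ngp, Ltf and Camp, the genes of secondary granules, were listed at 0.

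Receptors and adhesion genes were often on in part of the cells. Ifngr1, a chain of the interferon gamma receptor, was above 10 TPM in 55 cells and Tnfrsf1b, for the TNF receptor 2, in 35. Csf3r, for the G-CSF receptor, was on in 20 and Ccr1 in 17. Itgb2, for the beta 2 integrin chain, ranged from 0.45 through 395 to 2493 TPM and was above 10 TPM in 50 cells, as was Selplg. Among phagocytic receptors Fcgr3 was above 10 TPM in all 57 cells (12.6, 301 and 2928 TPM), Msr1, a scavenger receptor, in 34, Fcgr2b in 28, Tlr2 in 25 and Cd14 in 21. Cx3cr1, the fractalkine receptor that marks Ly6C-low monocytes, was above 10 TPM in 27 cells and Treml4 in 4.

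Against blood monocytes, the spread of marrow monocytes was larger in cell cycle genes. Of 11915 genes above 1 TPM in at least 10% of either group, the SD was higher in marrow by over 1 in 8.5% and lower by over 1 in 3.97%. It was higher for 30 of 36 G2 and M phase genes tested, 19 of 28 S phase genes and 3 of 5 primary granule genes, and lower for 0 in each list. Many of these genes were off in blood: Ccnb2 and Cks1b were above 10 TPM in 0 of 38 blood monocytes and in 21 and 19 marrow monocytes, so their blood SDs of 0.43 and 0.44 mark absence. The difference has 1 sample per group and no replicate check.

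**Figure D5:**
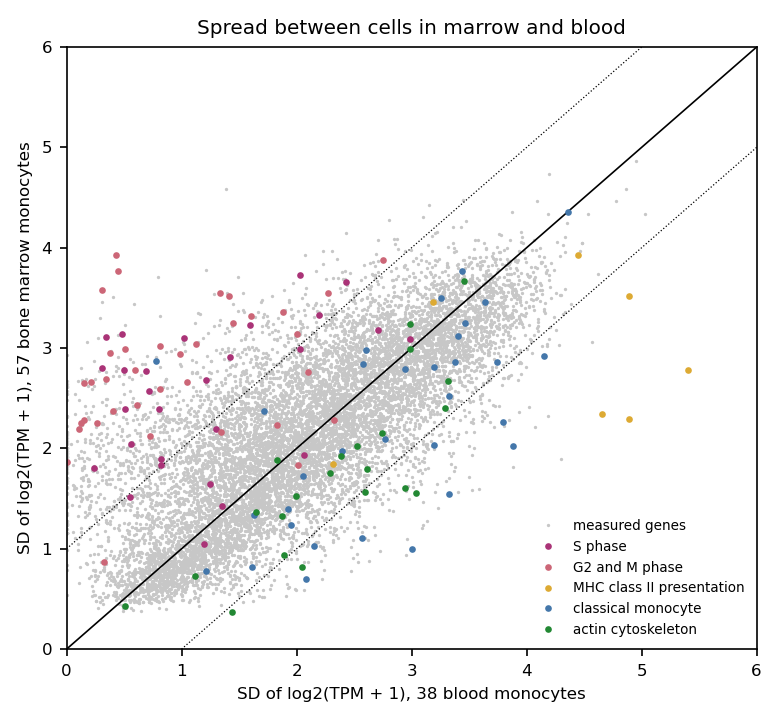
SD over cells of log2(TPM + 1) in 57 bone marrow monocytes against that in 38 blood monocytes for genes measured in marrow, with the line of equality and dotted lines at a difference of 1. Cell cycle genes lie above the upper dotted line (30 of 36 G2 and M phase genes), and 4 MHC class II genes lie below the lower one.

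The spread was smaller in marrow for 9 of 32 classical monocyte genes, against 1 higher, for 5 of 22 actin cytoskeleton genes and for 4 of 9 MHC class II genes. Other lists had this too: 7 of 41 oxidative phosphorylation, 5 of 22 pattern recognition, 4 of 13 Ly6C-low monocyte and 4 of 23 lysosome genes. Glycolysis had 0 of 15. The median SD difference, marrow minus blood, was -0.47 for classical monocyte, -0.52 for lysosome and -0.39 for glycolysis genes. It was -0.03 over all genes tested, which were not matched to the lists for level. Abundant genes outside these lists could also be wider in blood. Of the genes chosen for low spread in marrow, Actb had SDs of 0.37 in marrow and 1.44 in blood, and Eef1a1 0.61 and 1.45. Their lowest values in blood were 67.3 and 21.2 TPM. Ly6c2 had an SD of 1.55 in marrow and 3.33 in blood, where it was above 10 TPM in 35 of 38 cells. Akr1a1, an aldo-keto reductase gene, had 2.22 and 4.07, the superoxide dismutase gene Sod1 0.78 and 2.48, and H2-Ab1 2.35 and 4.66. Genes on in at least 25% of the cells of both groups with a larger spread in marrow were led by Dusp1 (3.84 and 2.23), Mocs2 (2.22 and 1.03) and Srgn, for the granule proteoglycan serglycin (3.16 and 2.03). The blood group, with 38 cells, had the lower complexity given above, and the part of complexity in the comparison was not tested beyond the range of 4000 to 5500 genes given under the processing.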

How the data were processed

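TPM values per gene and cell were used as the authors deposited them, and the submitters' processing notes name RSEM 1.2.19 and GRCm38. Aligner and annotation: not given in the sources used here. Groups came from the labels, and 0 columns lacked a sample. From TPM were computed levels, counts of cells above 1 and 10 TPM, SDs of log2(TPM + 1), Pearson correlations and average-linkage groups (joined up to 1 - r of 0.6), with Python 3.11.15, numpy 2.4.6, pandas 2.3.3 and scipy 1.17.1; the code was tested on simulated data. TPM keep no depth, so precision per value is unknown, and exact (Clopper-Pearson) 95% intervals cover counting error only. A count of 0 cells is given the limit of 3 cells of the total. No test was run because no label names an animal.

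Members and gene lists were chosen with earlier results of these data known. Genes named were the label and gate genes, the 25 most abundant, the 12 of lowest spread, the 20 of largest spread among genes in a fraction of cells, rare high genes (12), leaders of covarying groups (6 each), up to 4 per list by mean and by SD, and 6 in each direction against blood. Predicted, clone-named, mitochondrial, ribosomal and microRNA symbols were left out. Genes named for single cells or as nearest partners, and single list members beyond these, were chosen after their values were seen.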

Additional observations from a re-analysis of the deposited data

How the results depend on the processing

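Among the alternative values of the main results, 100 stayed close to the value reported (counts within 1.5 times, correlations within 0.2), 12 moved and 0 changed sign. Only correlations can change sign, and this was looked for where the reported r was at least 0.3 in size. For a reported r of 0.2 or less, a fall to 0 also counted as close, so the first number is a lenient one. At 10 TPM instead of 1, the genes on in all cells numbered 163 instead of 259 and those in 25% to 75% of cells 2886 instead of 5075. The median SD of 2.13 became 3.26 with a pseudocount of 0.1, 1.16 with 10 and 0 with no filter on low values, and with a pseudocount of 10, 12 of the 20 genes of largest SD were shared. The genes grouped with Top2a numbered 33 instead of 66 after genes per cell were removed, all 33 shared. Genes with a higher SD in marrow than in blood numbered 392 instead of 1013 with a pseudocount of 10 and 1678 with no filter. Those with a lower SD numbered 867 instead of 473 with a pseudocount of 0.1, 150 with 10 and 955 with no filter. The causes were not tested. Some correlations within that limit still moved by over 1.5 times. The median pair r of MHC class II genes, 0.22, was 0.14 as rho and 0.09 without cells 24, 32 and 48. That of interferon genes, 0.21, was 0.11 without cells 41 and 45 and 0.12 without the 6 cells of lowest complexity. That of primary granule genes, 0.34, was 0.20 without the 2 farthest cells, and that of chromatin and microtubule genes, 0.40, was 0.26 after genes per cell. With cells of 4000 to 5500 genes (39 marrow and 23 blood), these counts stayed within 1.5 times. Leaving out the 6 cells of lowest complexity left 57 genes grouped with Top2a, 52 of them shared. No paired analysis was possible because the labels give cells no replicate number and no test was run. Depth is unknown, so a value of 0 does not show absence.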
